A study of Mus musculus with 64 samples.

Results

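The mitochondrial genome of the mouse carries 37 genes, and all 37 were in the count table, taken as every row whose name starts with mt-, out of 53008 gene names. They are 13 mRNA genes, 2 rRNA genes and 22 tRNA genes. They were followed in 16 liver RNA libraries, 4 in each of 4 groups, with 4 deposited records per library. The groups were HuMgat2 HFD (high-fat diet), HuMgat2 chow, wild-type (WT) HFD and WT chow, each diet lasting 16 weeks. HuMgat2 mice carry human MOGAT2, whose enzyme joins monoacylglycerol and a fatty acid to diacylglycerol, instead of their own Mogat2, which the WT mice keep. The labels give no strain, sex or age, and do not say that each library is a separate animal, so p-values here measure the spread between these libraries.

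Mitochondria hold their own small circular DNA. Both of its strands are transcribed as long precursors, and most mRNAs and rRNAs are released when the tRNAs that lie between them are cut out. The mRNAs encode core subunits of the respiratory chain: the mt-Nd genes of complex I, mt-Cytb of complex III, the mt-Co genes of complex IV, and mt-Atp6 and mt-Atp8 of ATP synthase. The rRNAs mt-Rnr1 and mt-Rnr2 form the mitochondrial ribosome, and the tRNAs deliver amino acids to it. Hepatocytes are rich in mitochondria, so these transcripts take a large part of liver RNA. All other proteins of the respiratory chain, and all enzymes that copy, cut and modify mitochondrial RNA, are encoded in the nucleus.

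The results turned mainly on a few tRNA genes. The sequences of the 5 tRNA genes that passed the test in any comparison are given 5′ to 3′ as DNA with the anticodon in capitals, from GENCODE M21 transcripts, whose mitochondrial genes have the same coordinates as in the deposited GRCm39 table. On GRCm39 they lie at MT:9391-9458 (mt-Tg, tRNA for glycine, plus strand), MT:9808-9875 (mt-Tr, arginine, plus strand), MT:5192-5257 (mt-Tc, cysteine, minus strand), MT:3706-3774 (mt-Ti, isoleucine, plus strand) and MT:5260-5326 (mt-Ty, tyrosine, minus strand).
mt-Tg: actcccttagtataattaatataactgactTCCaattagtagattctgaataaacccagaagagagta
mt-Tr: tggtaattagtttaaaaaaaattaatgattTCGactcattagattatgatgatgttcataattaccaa
mt-Tc: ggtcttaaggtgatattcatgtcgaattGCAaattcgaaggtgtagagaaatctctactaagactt
mt-Ti: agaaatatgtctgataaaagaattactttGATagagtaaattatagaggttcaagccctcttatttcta
mt-Ty: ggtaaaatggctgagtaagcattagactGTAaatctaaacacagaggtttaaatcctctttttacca

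Genes on this genome abut or overlap. mt-Tg starts at the base after mt-Co3 ends, and mt-Nd3 starts at the base after mt-Tg ends. mt-Tr lies 1 base after mt-Nd3 and 1 base before mt-Nd4l. mt-Atp8 and mt-Atp6 share 43 bases, mt-Nd4l and mt-Nd4 share 7, and mt-Nd5 shares 14 bases with mt-Nd6, which is read from the other strand. The file header records counting without regard to strand, so reads of mt-Nd6 and of the 8 tRNA genes on its strand cannot be told apart from reads of the opposite strand at the same place.

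Library totals ranged from 12.4 to 25.8 M counts. Mouse Mogat2 had 0 to 2 counts in the HuMgat2 HFD libraries, 0 to 1 in HuMgat2 chow, 2 to 12 in WT HFD and 0 to 2 in WT chow, too few to check the genotype labels. WT HFD library 4 stood apart, with 12.4 M counts, albumin (Alb) at 0.85% of counts, and a summed macrophage marker level of 631 CPM against 169 to 237 CPM in the other WT HFD libraries (CPM, counts-per-million values scaled by the TMM method). Hepatocyte markers summed to 77705 to 93219 CPM in HuMgat2 on HFD, 94447 to 116455 CPM in HuMgat2 on chow, 60685 to 92705 CPM in WT on HFD and 98757 to 116844 CPM in WT on chow. Stellate cell markers summed to 376 to 445 CPM in HuMgat2 on HFD, 185 to 299 CPM in HuMgat2 on chow, 265 to 354 CPM in WT on HFD and 202 to 268 CPM in WT on chow, and no hepatocyte or stellate marker was at 0 over a group. Adipocyte markers summed to 3.05 to 7.02 CPM in HuMgat2 on HFD, 0 to 0.375 CPM in HuMgat2 on chow, 0.238 to 130 CPM in WT on HFD and 0.136 to 0.463 CPM in WT on chow. In WT on HFD the sum was 79 to 130 CPM in libraries 1 to 3 and 0.238 CPM in library 4, and 3 of the 5 markers (Adipoq, Plin1 and Lep) were at 0 over the group. Nearly all of the sum was Cfd, at 5.22 ± 1.98 CPM in HuMgat2 on HFD, 0.0909 ± 0.101 CPM in HuMgat2 on chow, 73.1 ± 53.8 CPM in WT on HFD and 0.271 ± 0.117 CPM in WT on chow. The part of these differences in the results was not tested. In bulk tissue, fewer cells of a type and less RNA per cell cannot be told apart.

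Mitochondrial genes took 8.12%, 7.73%, 7.17% and 7.18% of the counts in the 4 HuMgat2 HFD libraries, against 13.7%, 5.61%, 8.08% and 5.81% in the HuMgat2 chow libraries. In WT they took 8.31%, 6.86%, 7.82% and 4.82% on HFD, against 5.51%, 6.25%, 5.93% and 10.5% on chow. The group ranges overlapped in all comparisons of diet and of genotype. HuMgat2 chow library 13, at 13.7%, and WT chow library 8, at 10.5%, were the highest of the 16. The group means were 7.55 ± 0.461% in HuMgat2 on HFD, 8.3 ± 3.77% in HuMgat2 on chow, 6.95 ± 1.54% in WT on HFD and 7.05 ± 2.32% in WT on chow (SD, n = 4 each), so the differences between means were smaller than the SD of at least 1 group in each pair. A sum over the members was given no p.

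Nearly all of this share was mRNA. The 13 mRNA genes took 7.12 ± 0.436% of counts in HuMgat2 on HFD, 7.92 ± 3.56% in HuMgat2 on chow, 6.57 ± 1.55% in WT on HFD and 6.77 ± 2.24% in WT on chow. The 2 rRNA genes, measured after a ribosomal RNA depletion step, took 0.162% to 0.83% in the 16 libraries. The highest rRNA share was in HuMgat2 HFD library 10, whose mt-Rnr2 level was 3850 CPM against 689 to 1043 CPM in the other 3 libraries of its group. The 22 tRNA genes together took 205 to 511 CPM of unscaled library counts. Column purification and the library method recover short RNAs poorly, so counts at tRNA genes are not levels of mature tRNA.

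**Figure D1:**
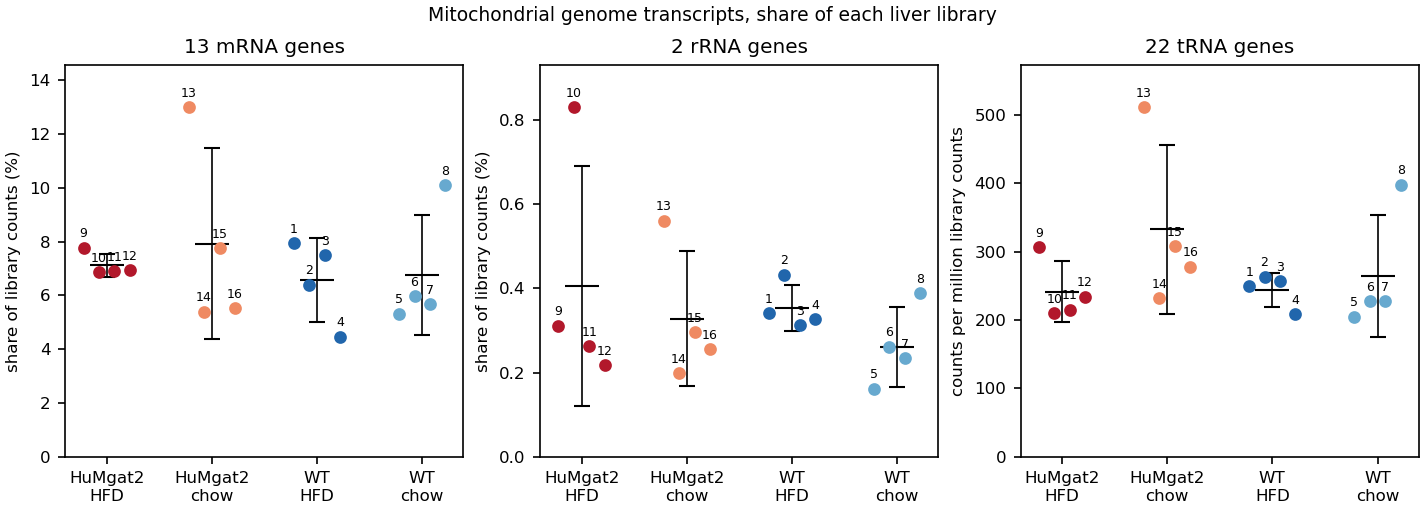
Share of each library's counts taken by mitochondrial mRNA, rRNA (both in %) and tRNA genes (CPM, unscaled), with 1 point per library, numbered, and the mean with SD bars for 4 libraries per group. HuMgat2 chow library 13 and WT chow library 8 lie above the others of their groups in all 3 panels.

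Per kilobase of gene, the mRNAs spanned a wide range. mt-Co1, the catalytic subunit of complex IV, averaged 14703 CPM per kilobase over the 16 libraries, and mt-Nd6, the complex I subunit read from the other strand, had the lowest mRNA level, 1730 CPM per kilobase. mt-Atp6 (10015 CPM per kilobase), mt-Co3 (7413) and mt-Nd4l (7262) followed mt-Co1. mt-Co1 also made up 32.5% of all mitochondrial mRNA counts, the mean over libraries. Among tRNA genes, mt-Tp (proline), mt-Tm (methionine), mt-Tl1 (leucine) and mt-Ti had the highest counts, averaging 94.5, 40.3, 37.4 and 20.3 CPM. The lowest was mt-Tf (phenylalanine), the first gene on the genome, with 9 counts in all libraries together.

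**Figure D2:**
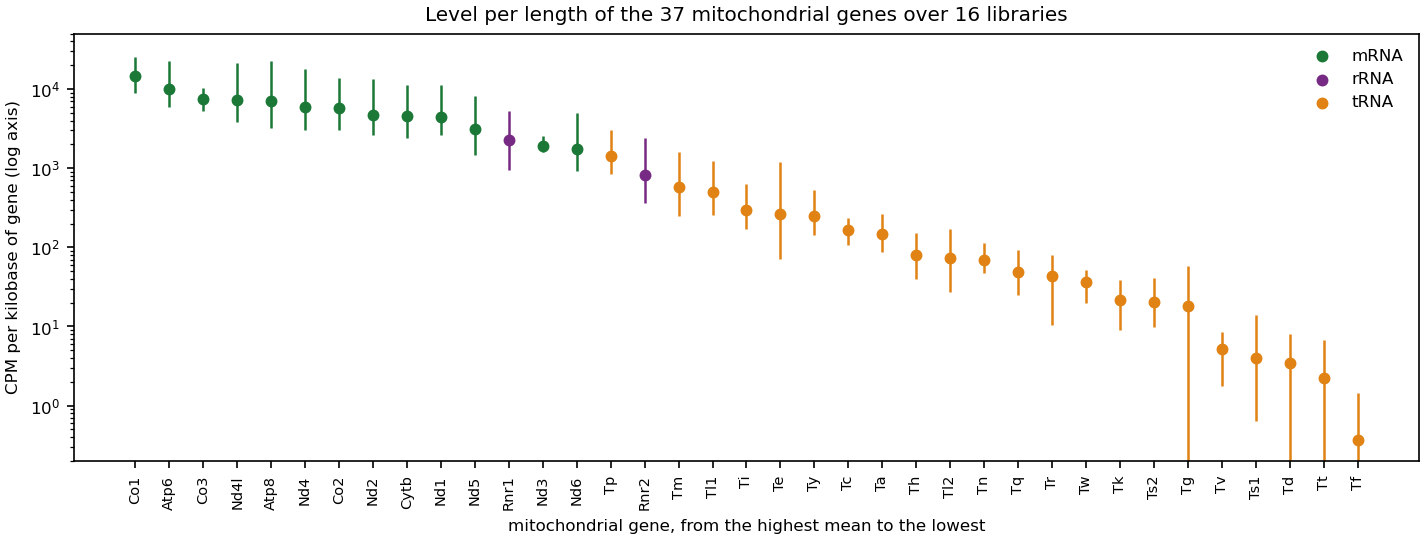
Mean level per kilobase of gene (CPM per kilobase, log axis) of the 37 mitochondrial genes over 16 libraries, ordered from high to low; lines run from the lowest to the highest library and reach the axis where a library had 0 counts. mt-Tp, below the 13 mRNA genes, is the only tRNA gene above an rRNA gene, mt-Rnr2.

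The 13 mRNAs did not vary by equal amounts between libraries. mt-Nd4, a core complex I subunit, stood at 7950, 7006, 6148 and 6250 CPM in HuMgat2 on HFD and at 24391, 4756, 9439 and 5874 CPM in HuMgat2 on chow. In WT it stood at 10061, 7288, 7867 and 4247 CPM on HFD and at 4340, 5593, 4779 and 13755 CPM on chow. The ranges on HFD and on chow overlapped in both genotypes, and the highest value in each genotype belonged to a chow library.

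mt-Co3, another core subunit of complex IV, was steadier. It stood at 5986, 5797, 5732 and 5470 CPM in HuMgat2 on HFD and at 8132, 5187, 5769 and 5726 CPM in HuMgat2 on chow. In WT it stood at 7475, 5207, 6802 and 4107 CPM on HFD and at 4975, 5230, 5358 and 6032 CPM on chow. Its highest library was 1.98 times its lowest over all 16 libraries, against 5.74 times for mt-Nd4, 7.03 times for mt-Atp8 and 1.6 times for mt-Nd3.

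HuMgat2 chow library 13 and WT chow library 8 were each the highest of their group for 13 of 13 mRNAs. Relative to the mean of the other 3 libraries of its group, library 13 ranged from 1.31 times for mt-Nd3 to 4.25 times for mt-Atp8. Library 8 ranged from 1.15 times for mt-Nd3 to 3.21 times for mt-Atp8. In both libraries mt-Nd4, mt-Nd4l, mt-Nd2 and mt-Nd5 were 2.73 to 3.65 times the mean of the others, while mt-Co1 and mt-Co3 were 1.16 to 1.76 times it. mt-Co1 made up 23.9% of mitochondrial mRNA in library 13, against 31.2% to 37.3% in the other HuMgat2 chow libraries. In library 8 it made up 28.2%, against 35.8% to 39.4% in the other WT chow libraries. In each of the 2 libraries 10 mRNAs had a larger part of the mitochondrial mRNA than in the other 3 of the group, and mt-Co1, mt-Co3 and mt-Nd3 had a smaller part. Both libraries had ordinary depth, 19.5 and 21.5 M counts, and library 13 had the lowest TMM factor of the 16, at 0.794. Malat1, an RNA that stays in the nucleus, took 0.2% of counts in library 13, against 0.185% to 0.408% in the rest of its group, and 0.235% in library 8, against 0.225% to 0.421%. Neat1, another such RNA, went lower: 0.0899% in library 13, against 0.173% to 0.398% in the rest of its group. In library 8 Neat1 took 0.316%, against 0.402% to 0.647%, so it was the lowest of its group in both libraries. The part of scaling and of RNA handling in the high mitochondrial values was not tested.

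**Figure D3:**
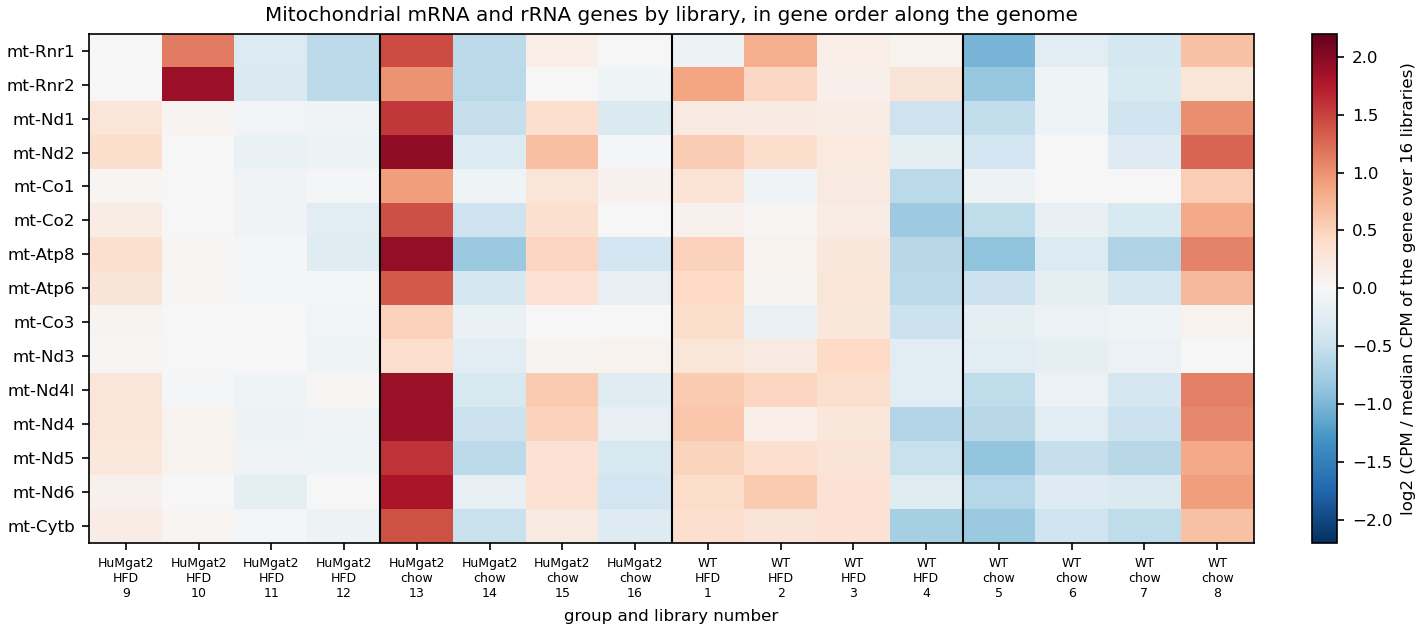
Levels of the 13 mitochondrial mRNA and 2 rRNA genes in 16 libraries, as log2 of CPM over the gene's median, in gene order along the genome, with black lines between groups. HuMgat2 chow library 13 and WT chow library 8 are high for most genes, and among the mRNAs their values nearest 0 are those of mt-Co3 and mt-Nd3.

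Each gene was tested with the edgeR quasi-likelihood test, with Benjamini-Hochberg adjustment over 17318 genes, and is called at adjusted p below 0.05. Of the 37 members, 32 passed the filter on low counts. The 5 that did not, all tRNA genes (mt-Tf, mt-Tv, mt-Ts1, mt-Td and mt-Tt), had 0 to 15 counts per library.

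For HFD against chow in HuMgat2 mice, 2 of 32 tested mitochondrial genes were called, both lower on HFD, where 14% of all tested genes were called. They were mt-Ti and mt-Ty. None of the 13 mRNAs or 2 rRNAs was called by edgeR or by DESeq2, and 0 of these 15 had an unadjusted p below 0.05. Of the 17 tested tRNAs, 11 had an unadjusted p below 0.05, where 4757 of all 17318 tested genes did. All 17 tRNA estimates were negative, and they share the same libraries. The median log2 change was -0.47 over the mRNAs and -0.78 over the 17 tested tRNAs, against -0.01 over all tested genes. The mRNA median was 0.03 without HuMgat2 chow library 13, so its sign rests on that library.

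mt-Ti stood at 20.4, 12.2, 13.8 and 12.6 CPM in HuMgat2 on HFD, against 44.1, 13.7, 30 and 31.9 CPM in HuMgat2 on chow. The lowest chow library lay inside the HFD range, and the other 3 chow libraries lay above it. Its log2 change was -1.01 ± 0.27 (SE), a 2.02-fold decrease (adjusted p = 0.0175). Without library 13 the log2 change was -0.77 (adjusted p = 0.069), above the threshold.

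mt-Ty stood at 17.1, 9.96, 9.57 and 13.1 CPM in HuMgat2 on HFD, against 35.1, 17.7, 17.3 and 22.5 CPM in HuMgat2 on chow, and the groups did not overlap. Its log2 change was -0.89 ± 0.26 (adjusted p = 0.0317), and -0.62 without library 13 (adjusted p = 0.124). Both calls were also lost without library 10, 11 or 12 of the HFD group, and that of mt-Ty without HuMgat2 chow library 16. In all, 4 of 32 members were lower without overlap on HFD and 0 were higher, where 21% of all tested genes had groups that did not overlap. mt-Tl2, the second leucine tRNA, was just outside the threshold, with a log2 change of -0.98 ± 0.32 (adjusted p = 0.0509).

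mt-Tv, the valine tRNA, did not pass the filter on low counts with all 16 libraries. It had 3, 6, 6 and 4 counts in HuMgat2 on HFD, against 9, 12, 9 and 12 counts in HuMgat2 on chow, and the groups did not overlap. It passed the filter and was called lower on HFD by edgeR in 7 of the 8 fits that left out 1 HuMgat2 library, with log2 changes from -1.45 to -1.13 and adjusted p from 0.0222 to 0.0481. In these fits it passed through chow libraries alone, the diet on which it was high, and without HuMgat2 chow library 16 it did not pass. The fits share most of their libraries, so their number is no separate support. With no filter mt-Tv was not called (log2 change -1.3, adjusted p = 0.0626). Without HuMgat2 HFD library 10, 11 or 12 or HuMgat2 chow library 13 it was the only mitochondrial gene called.

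For HFD against chow in WT mice, 1 of 32 mitochondrial genes was called, mt-Tc, higher on HFD, where 15.1% of all tested genes were called. mt-Tc stood at 9.38, 14.3, 11.1 and 13.7 CPM in WT on HFD, against 9.73, 7.63, 7.07 and 8.85 CPM in WT on chow. WT HFD library 1 lay inside the chow range. The log2 change was 0.54 ± 0.16 (adjusted p = 0.033), and the call was lost without WT HFD library 2 or 4, without WT chow library 6, 7 or 8, and with only the WT groups in the fit. Groups did not overlap for 1 member, mt-Ti, which was lower on HFD (log2 change -0.52, adjusted p = 0.208), where 18.2% of all tested genes did not overlap.

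No mRNA or rRNA was called for this comparison by edgeR or DESeq2, and 1 of the 13 mRNAs, mt-Nd3, had an unadjusted p below 0.05. Of the 17 tested tRNAs 2 had one, where 5143 of all 17318 tested genes did. mt-Nd3, a small complex I subunit, stood at 794, 754, 887 and 555 CPM in WT on HFD, against 554, 564, 598 and 659 CPM in WT on chow, a log2 change of 0.33 ± 0.15 (adjusted p = 0.141). Without WT HFD library 4 it was 0.45 with adjusted p = 0.0241. The median over the 13 mRNAs was 0.09, against 0.03 over all tested genes, and 0.48 without WT chow library 8. It was -0.04 without WT HFD library 1 or WT chow library 5, and -0.01 without WT chow library 7. Without WT chow library 8 and HuMgat2 chow library 13, a setting chosen after their values were seen, 4 members were called higher on HFD in WT. They were mt-Tm (log2 change 0.98, adjusted p = 0.00912), mt-Te, the glutamate tRNA (1.24, adjusted p = 0.0227), mt-Tc (0.57, adjusted p = 0.0474) and mt-Nd6 (0.68, adjusted p = 0.0491). With all 16 libraries 15.1% of all tested genes were called for diet in WT. The share of all tested genes in this setting is not given here, so the count is no result about the members.

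No mitochondrial gene was called by edgeR in the interaction test, which asks whether the diet effect differed between the genotypes and where 4.87% of all tested genes were called. All 32 estimates were negative, with a median of -0.68 against -0.05 over all tested genes, and 4 had an unadjusted p below 0.05. All 32 estimates share the same 16 libraries, and the mRNA median was -0.07 without HuMgat2 chow library 13. DESeq2 called 1 gene, mt-Tn, the asparagine tRNA (adjusted p = 0.0497, against 0.0859 with edgeR and 0.0419 with edgeR without WT HFD library 1).

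The largest difference among the tested members was between the genotypes, at mt-Tg. It had 0, 1, 0 and 0 counts in the HuMgat2 HFD libraries, against 43, 96, 62 and 19 in the WT HFD libraries. On chow it had 0, 0, 2 and 0 counts in HuMgat2, against 40, 36, 67 and 55 in WT. The 8 HuMgat2 libraries together held 3 counts and the 8 WT libraries 418, and the groups did not overlap on either diet. Relative to library totals, the summed counts on HFD were 0.00453 times those of WT (95% exact interval 0.000114 to 0.0255), a 221-fold difference with an interval from 39.2-fold to 8760-fold. On chow the ratio was 0.00954 (0.00115 to 0.0349), a 105-fold difference with an interval from 28.7-fold to 872-fold. These intervals cover counting error only.

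By edgeR mt-Tg was called lower in HuMgat2 on HFD (fitted log2 change -7.28 ± 0.67, adjusted p = 4.54e-06) and on chow (-6.26 ± 0.63, adjusted p = 3.95e-05). The labels give no strain, so a difference in mitochondrial DNA sequence between the HuMgat2 and WT mice cannot be told apart from the change of the MOGAT2 gene in this comparison, and none was tested for. With so few counts the fitted values depend on the method's prior count. mt-Tg passed the filter on low counts through its WT libraries alone. Both calls held under all alternatives run, including each library left out. Its diet effect was not called in either genotype. In HuMgat2 it had 1 count over the HFD libraries and 2 over the chow libraries, too few to call a diet effect.

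mt-Tr, which lies on the other side of mt-Nd3, was lower as well. It stood at 2.12, 0.708, 1.32 and 2.02 CPM in HuMgat2 on HFD, against 4.35, 4.17, 4.05 and 2.86 CPM in WT on HFD. On chow it stood at 2.45, 2.66, 1.93 and 2.39 CPM in HuMgat2, against 4.02, 2.73, 5.4 and 3.81 CPM in WT. The genotypes did not overlap on either diet, although HuMgat2 chow library 14 and WT chow library 6 were close. On HFD the log2 change was -1.33 ± 0.28, a 2.51-fold decrease (adjusted p = 0.00455), and it was called under all alternatives run. On chow it was -0.75 ± 0.27 and was not called (adjusted p = 0.294).

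Between the genotypes on HFD, 2 of 32 members were called (mt-Tg and mt-Tr), where 14.8% of all tested genes were called, and the same 2 were the members without overlap, where 21.2% of all tested genes had none. On chow, 1 of 32 was called (mt-Tg), where 0.508% of all tested genes were called. Groups did not overlap on chow for 3 members that were higher and 2 that were lower in HuMgat2, where 6.62% of all tested genes did not overlap. No mRNA or rRNA was called on either diet by edgeR or DESeq2, and 0 of the 15 had an unadjusted p below 0.05 on either diet. Of the 17 tested tRNAs 2 had one on HFD and 6 on chow, where 5399 and 1863 of all 17318 tested genes did. The median over the 13 mRNAs was -0.1 on HFD, against -0.04 over all tested genes, and 0.54 on chow, against 0. With WT HFD library 1 left out the HFD median was 0.07, and with library 4 left out it was -0.3. The chow median was -0.06 without HuMgat2 chow library 13 and 1.01 without WT chow library 8.

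**Figure D4:**
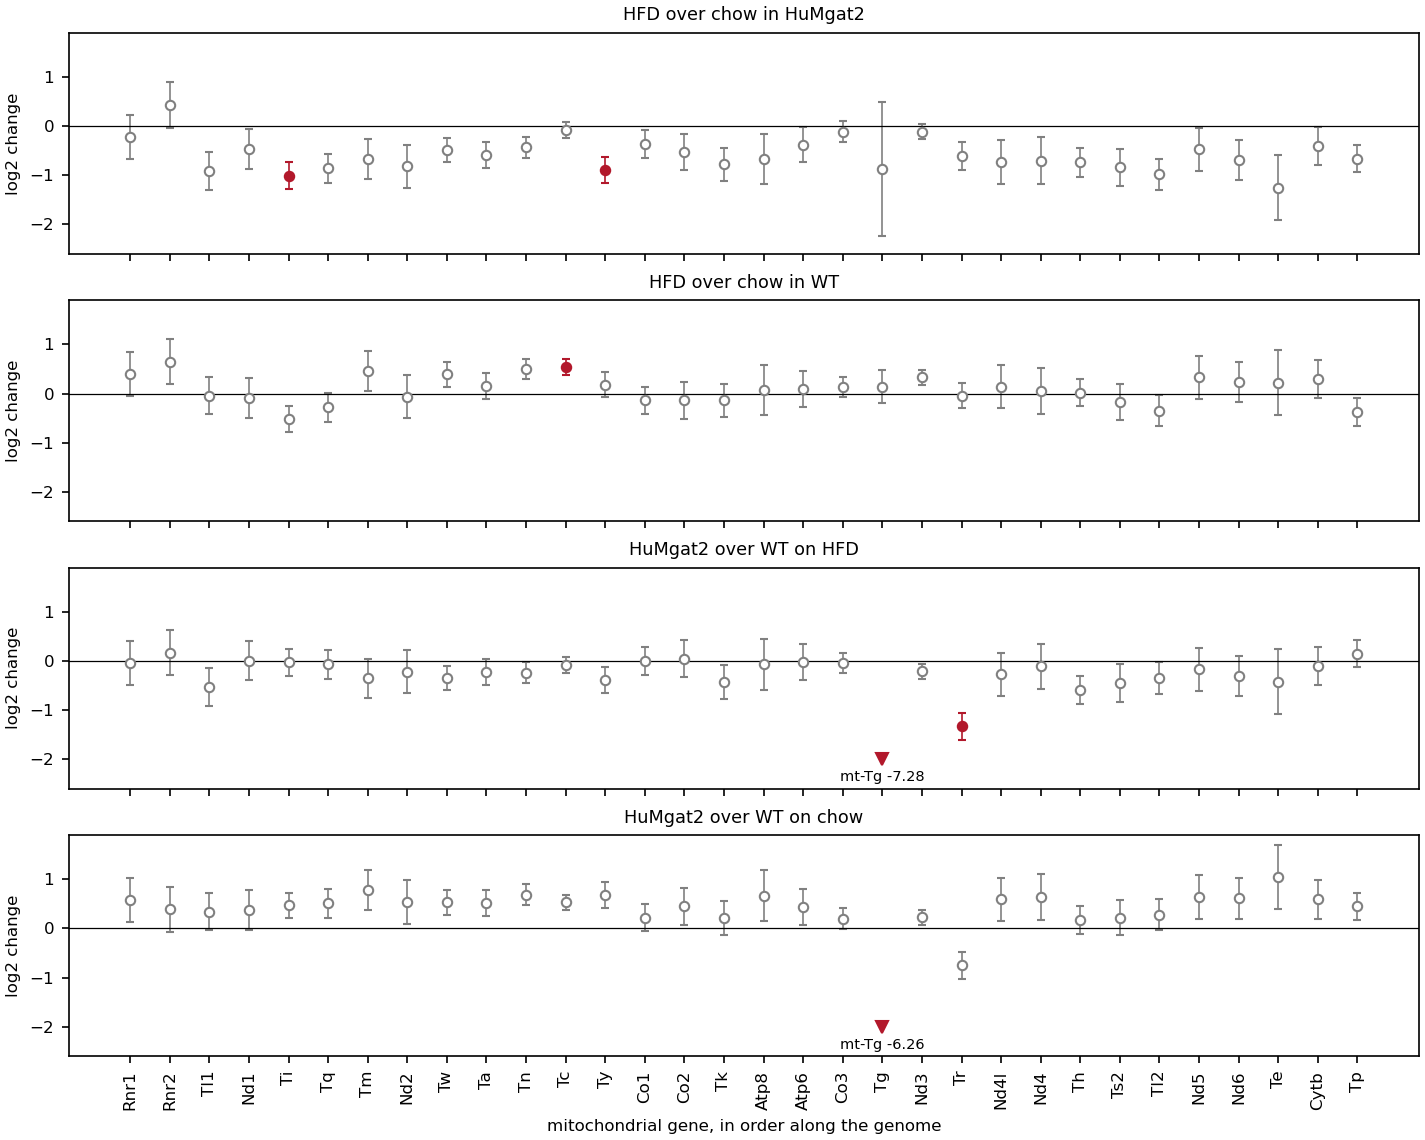
Log2 change (edgeR) with SE bars of the 32 tested mitochondrial genes in 4 comparisons, in gene order along the genome; filled red points are called at adjusted p below 0.05, and red triangles mark mt-Tg off the axis. mt-Tg and mt-Tr, on either side of mt-Nd3, are the members called between the genotypes, mt-Tg on both diets and mt-Tr on HFD only.

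The part of the genome around mt-Tg also exists in the nucleus. Old insertions of mitochondrial DNA lie in nuclear chromosomes of most animals, and reads from such sequence can match both places. The 37 genes were aligned to all nuclear transcripts of GENCODE M21, with a rule of at least 95% identity over at least 200 bases. All tRNA genes are shorter than 200 bases, so no copy of mt-Tg, mt-Tr or another tRNA gene could meet it. Sequence outside annotated transcripts was not searched. The alignment found 11 genes. Of these, 7 form a run on chromosome 1 between 24650616 and 24655278 (GRCm39, minus strand), in the same order as on the mitochondrial genome: the end of mt-Co1 (Gm29216), mt-Co2 (Gm28661), mt-Atp6 (Gm10925), mt-Co3 (Gm28437), mt-Nd3 (Gm28438), mt-Nd4l (Gm10222) and part of mt-Nd4 (Gm28439). The gap between Gm28437 and Gm28438 is 69 bases long, and mt-Tg itself has 68 bases.

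The 7 chromosome 1 copies took 1.93% to 5.62% of the counts of a library. Gm28437 had 100.02% to 100.06% of the counts of mt-Co3, and Gm28661 had 100.05% to 100.28% of the counts of mt-Co2, in all 16 libraries. For such pairs, with nearly equal counts at both places, the mitochondrial gene and its copy were not measured apart. The counts of all copies add to library totals. The file header shows no option to count reads that align to several places, and how such reads were handled before counting is not given in the sources used here, so the shares and levels of these genes carry that uncertainty. Gm10222 had 98.07% to 99.47% of the counts of mt-Nd4l. Other pairs were further from equal. Gm10925 had 113.18% to 132.58% of the counts of mt-Atp6. Gm28439 and Gm29216, which match only part of their gene, had 50.12% to 63.49% of the counts of mt-Nd4 and 24.52% to 28.59% of those of mt-Co1. None of the 11 copies found by alignment was called in any of the 5 comparisons by edgeR or DESeq2, and 0 to 2 of them had an unadjusted p below 0.05. Over all tested genes edgeR called 0.508% (genotype on chow) to 15.1% (diet in WT). An unadjusted p below 0.05 was found for 1863 to 5399 of all 17318 tested genes. With only 11 copies, these counts are no result about the copies. Of 11 candidate copies listed by name, 9 were among those found by alignment. Of the other 2, which did not meet the alignment rule, Gm11808 was called lower in HuMgat2 HFD than in WT HFD libraries (log2 change -0.37, adjusted p = 0.0212). In this comparison 14.8% of all tested genes were called, and the Gm11808 call was lost under 4 of 16 alternatives.

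At 1 pair the balance differed between the genotypes. Gm28438 and mt-Nd3 differ at a single base, T3C, where the base of mt-Nd3 is given first, then the position counted from the gene's first base, then the base of Gm28438. Their first 30 bases are shown 5′ to 3′ with that base in capitals, from GENCODE M21 transcripts. On GRCm39 mt-Nd3 lies at MT:9459-9806 on the plus strand and Gm28438 at chr1:24651856-24652200 on the minus strand.
mt-Nd3 start: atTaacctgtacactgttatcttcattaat
Gm28438 start: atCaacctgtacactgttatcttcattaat

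This base is at position 9461 of the mitochondrial genome, 3 bases past the end of mt-Tg. In the HuMgat2 HFD libraries Gm28438 had 269 to 446 counts more than mt-Nd3, against 70 to 320 counts fewer in the WT HFD libraries. In the HuMgat2 chow libraries it had 331 to 475 more, against 173 to 288 fewer in the WT chow libraries. Thus Gm28438 exceeded mt-Nd3 in all 8 HuMgat2 libraries and in none of the 8 WT libraries.

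As a share of mt-Nd3 counts, Gm28438 stood at 102.23 ± 0.376% in HuMgat2 and 98.73 ± 0.522% in WT on HFD, and at 102.78 ± 0.568% in HuMgat2 and 98.29 ± 0.321% in WT on chow (SD, n = 4). The exact two-sided permutation p was 0.0286 on each diet, the smallest that 4 against 4 libraries can give, and 0.2 after adjustment over 14 tests (7 pairs on 2 diets). The pair was chosen after its values were seen. The 12 tests of the other 6 pairs gave exact p from 0.114 to 0.971. The level of mt-Nd3 itself was not called between the genotypes on HFD (log2 change -0.21) or on chow (0.23). Only counts per gene were used here: which base the reads carried at position 9461, and the part of read placement between the copies in the counts of mt-Tg and mt-Tr, were not tested.

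**Figure D5:**
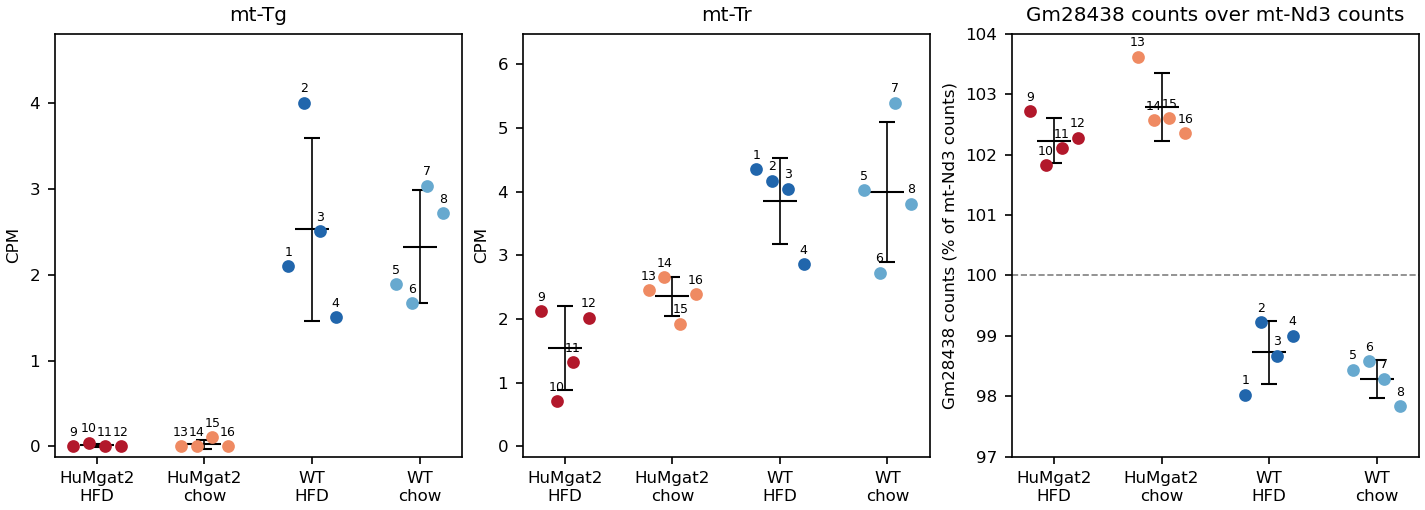
CPM of mt-Tg and mt-Tr, and Gm28438 counts as a percentage of mt-Nd3 counts (dashed line at 100%), with 1 numbered point per library and mean with SD bars for 4 libraries per group. All 8 HuMgat2 libraries lie at or near 0 for mt-Tg and above 100% in the third panel, and all 8 WT libraries lie below 100%.

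Nuclear genes for mitochondrial RNA and the respiratory chain were followed beside the members. Of 171 tested genes in 11 lists, edgeR called 3 higher and 6 lower on HFD in HuMgat2 (5.26%, where 14% of all tested genes were called) and 4 higher and 6 lower on HFD in WT (5.85%, where 15.1% were). Between the genotypes it called 5 higher and 3 lower in HuMgat2 on HFD (4.68%, where 14.8% were), and 1 gene in the interaction (0.585%, where 4.87% were). None of these 4 shares exceeded that of all tested genes, so the counts are no result about the lists, and the genes named after them are given for their own values. On chow it called 0 (0.508% of all tested genes were called), with 11 at an unadjusted p below 0.05, and DESeq2 called 0. The median log2 change over the 171 genes was 0.02 for diet in HuMgat2 and in WT, and 0.03 for genotype on HFD and on chow, against -0.01, 0.03, -0.04 and 0 over all tested genes. Counting Gm11808, Neat1 and Meg3 as well, 32 calls were made, and 10 of them held under all alternatives run: Clpx, Dna2, Trmt10c, Angel2 and Neat1 for diet in WT, Mettl15, Neat1 and Meg3 for diet in HuMgat2, and Clpx and Slc25a33 for genotype on HFD. Of 71 nuclear subunits of complexes I, III and IV and ATP synthase, 2 were called in HuMgat2 on diet, where 14% of all tested genes were called. These 2 subunits were Ndufa7, higher with groups that overlapped (log2 change 0.4), and Ndufs7, lower (-0.28). In the other 4 comparisons, where 15.1% (diet in WT), 14.8% (genotype on HFD), 0.508% (genotype on chow) and 4.87% (interaction) of all tested genes were called, edgeR called 0 of the 71, with 0 to 7 at an unadjusted p below 0.05, and DESeq2 called 1, Atp5b, between genotypes on HFD.

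Among the 11 genes of mitochondrial transcription, 1 was called, for diet in WT, where 15.1% of all tested genes were called. Counts in lists this short are no result about the lists. Tefm, the elongation factor of the mitochondrial RNA polymerase, was higher on HFD in WT, at 6.2 ± 0.38 CPM on HFD against 4.27 ± 0.722 CPM on chow (log2 change 0.54, adjusted p = 0.0228). Of 21 genes for RNA processing and stability, 3 were called for diet in WT and 1 in HuMgat2, where 15.1% and 14% of all tested genes were. Trmt10c, a subunit of the nuclease that cuts the 5′ ends of mitochondrial tRNAs, was lower on HFD in HuMgat2, at 11.2 ± 0.492 CPM on HFD against 14.1 ± 2.05 CPM on chow (-0.32, adjusted p = 0.0402), and in WT, at 10.6 ± 0.366 CPM on HFD against 14.3 ± 1.02 CPM on chow (-0.43, adjusted p = 0.01). Hsd17b10, another subunit of that nuclease, was higher on HFD in WT (0.76, adjusted p = 0.0226), with groups that overlapped, as was Angel2, a phosphatase of RNA ends (0.5, adjusted p = 0.00527), without overlap.

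Of 19 genes for tRNA and rRNA modification, 2 were called for diet in each genotype. Over all tested genes 14% were called for diet in HuMgat2 and 15.1% in WT. Mettl15, a methyltransferase of the small ribosomal RNA, was higher on HFD in HuMgat2, at 4.2 ± 0.86 CPM on HFD against 2.48 ± 0.32 CPM on chow (0.76, adjusted p = 0.00808), and in WT, at 3.05 ± 0.38 CPM on HFD against 1.98 ± 0.211 CPM on chow (0.62, adjusted p = 0.0283). Nsun2, a tRNA methyltransferase, was lower in HuMgat2 (-0.34), and Nsun4, an rRNA methyltransferase, was lower in WT (-0.34).

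Of 15 genes for mitochondrial DNA replication and maintenance, 2 were called for diet in each genotype and 3 between genotypes on HFD. Over all tested genes 14% were called for diet in HuMgat2, 15.1% for diet in WT and 14.8% between genotypes on HFD. Dna2, a nuclease and helicase, was lower on HFD in HuMgat2, at 7.1 ± 0.598 CPM on HFD against 9.7 ± 1.34 CPM on chow (-0.45, adjusted p = 0.0215), and in WT, at 8.33 ± 0.821 CPM on HFD against 11.7 ± 1.42 CPM on chow (-0.5, adjusted p = 0.0137). Twnk, the replicative helicase, was lower on HFD in WT (-0.34, adjusted p = 0.0384) and under HFD higher in HuMgat2, at 19.2 ± 0.995 CPM, than in WT, at 14.6 ± 1.05 CPM (0.4, adjusted p = 0.0191). Slc25a33, a pyrimidine nucleotide carrier, was under HFD lower in HuMgat2, at 4.12 ± 0.247 CPM, than in WT, at 7.23 ± 1.39 CPM (-0.81, adjusted p = 0.0116), and lower on HFD than on chow in HuMgat2 (-0.68). Mgme1, a nuclease, was higher in HuMgat2 than in WT on HFD (0.44, adjusted p = 0.0432).

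Of 11 regulators of mitochondrial biogenesis, 2 were called for diet in HuMgat2, 1 in WT and 2 between genotypes on HFD. Over all tested genes 14%, 15.1% and 14.8% were called in these comparisons. Sirt1, a deacetylase, was lower in HuMgat2 on HFD than on chow (-0.54, adjusted p = 0.0191) and than in WT on HFD (-0.5, adjusted p = 0.0316). Esrra, a nuclear receptor, was higher on HFD in HuMgat2 (0.41), and Yy1, a transcription factor, was lower on HFD in WT (-0.27). Ppargc1b, a coactivator, was lower in HuMgat2 HFD than in WT HFD libraries (-0.72, adjusted p = 0.0453), with groups that overlapped. The Ppargc1b call was lost under 11 of 16 alternatives. Of 13 translation factors, 1 was called, between genotypes on HFD, where 14.8% of all tested genes were called. It was Gfm1, an elongation factor, higher in HuMgat2 than in WT on HFD (0.49, adjusted p = 0.0382).

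Of 10 genes for mitophagy and turnover, Clpx, a subunit of the protease of the mitochondrial matrix, was called in 3 comparisons. Over all tested genes these called 15.1% (diet in WT), 14.8% (genotype on HFD) and 4.87% (interaction). Clpx stood at 46.1 ± 2.72 CPM in WT on HFD, against 100 ± 15.2 CPM in WT on chow (log2 change -1.12 ± 0.18, adjusted p = 0.000938), and at 84.1 ± 26.2 CPM in HuMgat2 on HFD, against 96.2 ± 17.9 CPM in HuMgat2 on chow. It was higher in HuMgat2 than in WT on HFD (0.87, adjusted p = 0.0048), and its diet effect differed between the genotypes (interaction log2 0.93 ± 0.26, adjusted p = 0.0474), a call that was lost without HuMgat2 HFD library 9 or 11, HuMgat2 chow library 14, 15 or 16, WT HFD library 1, 2 or 3, or any 1 of the WT chow libraries. Phb, a scaffold protein of the inner membrane, was higher in HuMgat2 than in WT on HFD (0.3, adjusted p = 0.0474). Of 4 tested nuclear-retained RNAs, Neat1 and Meg3 were called for diet, where 14% of all tested genes were called in HuMgat2 and 15.1% in WT. Neat1 was lower on HFD in HuMgat2, at 834 ± 242 CPM on HFD against 2610 ± 1305 CPM on chow (-1.65, adjusted p = 0.00863), with groups that overlapped. In WT it was lower without overlap, at 1422 ± 637 CPM on HFD against 4689 ± 1339 CPM on chow (-1.72, adjusted p = 0.00721). Meg3 was lower on HFD in HuMgat2 without overlap, at 0.388 ± 0.241 CPM on HFD against 3.42 ± 3.54 CPM on chow (-3.11, adjusted p = 0.00213). The Meg3 change was -2.06 without HuMgat2 chow library 15 (adjusted p = 0.00402).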

How the data were processed

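The data are 1 deposited table of counts per gene for 16 liver libraries of total RNA depleted of rRNA. Per the file header, the authors counted read pairs with featureCounts 2.0.1 against Ensembl 103 (GRCm39), by gene name and without a strand setting; per the submitters' processing notes, STAR 2.7 and DESeq2 1.26.0 were used. Each library's 4 deposited records were treated as 1 sample.

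Genes were filtered on low counts with edgeR 4.0.16 (limma 3.58.1, R 4.3.3), scaled by TMM, and tested by quasi-likelihood in 1 model of the 4 groups, with Benjamini-Hochberg adjusted p over 17318 genes and a threshold of 0.05. The gene length column served for levels per kilobase. DESeq2 1.42.0, other scalings and filters, and leaving out libraries were the alternatives. Copies were found with blastn 2.17.0. The tRNA genes named are the 4 of highest level and those called; list genes are up to 4 called per list and comparison, and a few others were chosen after their values were seen. Members and lists were chosen with earlier results of these data known.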

Additional observations from a re-analysis of the deposited data

Results flagged for a closer look

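In each group of 4 libraries, 27 quantities were checked for a library far from the other 3 by Dixon's test (108 group values), and 20 were. Chance flags about 1 in 20 groups where values are independent and normally distributed. Here the quantities are sums and their own members in the same libraries, and 12 of the 20 flags fell on WT chow library 8. The number of flags is thus no measure of an excess over chance.

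WT chow library 8 was far above the rest of its group in most of them. Its mitochondrial genes took 10.5% of counts, its mitochondrial mRNAs 10.1% and its mitochondrial tRNAs 0.0398%. Its levels were 8825 CPM for mt-Nd2, 30313 CPM for mt-Co1, 2547 CPM for mt-Atp8, 10016 CPM for mt-Atp6, 3631 CPM for mt-Nd4l, 13755 CPM for mt-Nd4, 8829 CPM for mt-Nd5, 1406 CPM for mt-Nd6 and 71.7 CPM for mt-Tl1. HuMgat2 chow library 13 was higher still, but the spread of its other 3 libraries kept it under the test's critical value.

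HuMgat2 HFD library 9 was highest of its group for the mRNA share, 7.77%, and for mt-Tm, 46.4 CPM. HuMgat2 HFD library 10 was highest for the rRNA share, 0.83%, and for mt-Rnr2, 3850 CPM. WT HFD library 4 was lowest of its group for mt-Nd1, 2710 CPM, and for mt-Cytb, 2974 CPM. For mt-Tg the only counts of the HuMgat2 groups were in HuMgat2 HFD library 10 (0.0443 CPM, 1 count) and HuMgat2 chow library 15 (0.107 CPM, 2 counts); with the other 3 libraries at 0 any count meets the rule, so these say nothing about either library.

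The diet effect on Clpx differed between the genotypes by the edgeR interaction test, with a log2 difference of 0.93 (adjusted p = 0.0474). The call was lost under 13 of 23 alternatives, and 4.87% of all tested genes were called in this test.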

How the results depend on the processing

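The mt-Tg calls on both diets and the mt-Tr call on HFD held under every alternative run, with fitted log2 changes from -8.77 to -6.96 and from -8.65 to -5.8 for mt-Tg on HFD and on chow, and from -1.52 to -1.09 for mt-Tr. The counts of mitochondrial genes called between genotypes stayed at 2 on HFD and 1 on chow with any library left out.

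The diet counts moved. In the main fit 14% of all tested genes were called for diet in HuMgat2, 15.1% for diet in WT and 4.87% in the interaction. The shares of all tested genes under the alternatives are not given here, so the counts that follow are no result about the members. With only the groups compared in the fit, 4 genes were called in HuMgat2 and 0 in WT, against 2 and 1. DESeq2 called 4 in HuMgat2 and 1 in the interaction. Without both chow libraries of high mitochondrial share, a setting chosen after seeing the data, 1 was called in HuMgat2 and 4 in WT. The 1 in HuMgat2 was mt-Tv (log2 change -1.26, adjusted p = 0.0443), and mt-Ti and mt-Ty were both lost. With 1 library left out, the count ranged from 1 to 4 in HuMgat2, from 0 to 2 in WT and from 0 to 1 in the interaction. The genes changed with the library. mt-Tv, which passed the filter through chow libraries alone, was called in 7 of the 8 fits in HuMgat2. mt-Nd3 was called in place of mt-Tc without WT HFD library 4. The cause was not tested. The log2 change of mt-Te in WT, 0.22 and not called, ranged from -0.07 without WT chow library 5 to 1.24 without library 8, and was -0.01 without library 7. Of the 519 values of called list genes under alternatives, 356 kept their call, 163 lost it and 0 reversed.

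The difference in mitochondrial share between groups, in percentage points, ranged with 1 library left out from -1.64 to 1.05 for diet in HuMgat2, from -0.623 to 1.06 for diet in WT, from -0.114 to 1.05 for genotype on HFD and from -0.556 to 2.39 for genotype on chow. Counts of most tRNA genes are low, and 4 libraries per group limit what can be called. No paired analysis was possible because the library numbers are not shared between groups.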
